A study of Mus musculus with 18 samples.

Results

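Brown and white fat genes are described here as 10 genes of the 24062 in the count table: Ucp1, Cidea, Ppargc1a and Adrb3 of the heat-producing program, Adipoq, Lep, Retn and Cfd, which encode secreted fat proteins, and Plin1 and Fabp4, which handle lipid. They were chosen by symbol, and with the knowledge that their levels were lower in lung with induced Ccne1, so their lung values are a description without a test. Tests are given for kidney and liver, which the choice did not use. All 10 genes were found in the table and read in all 18 libraries.

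The study sequenced RNA of whole liver, kidney and lung from C57BL/6 mice that overexpressed Ccne1, the gene of cyclin E1, and from controls. CCNE-TA mice carried a tetracycline-inducible Ccne1 transgene and the rtTA transactivator, TA mice carried rtTA alone, and both had doxycycline from 3 weeks of age and were studied at 4 months. There were 6 groups, 1 per tissue and genotype, with 3 libraries each. The sources used here do not name the promoter that drives rtTA, do not say whether fat next to the organs was trimmed, and do not tie a replicate number to a mouse, so the p-values measure the spread between these libraries. Ccne1 separated the genotypes without overlap in all 3 tissues, with CCNE-TA and TA means of 287 and 2.47 CPM (counts scaled to library size) in liver, 718 and 2.06 in kidney and 88.8 and 3.59 in lung.

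White adipocytes store triglyceride in a single large droplet and release hormones such as adiponectin and leptin. Brown adipocytes hold many small droplets and many mitochondria, and burn lipid for heat through uncoupling protein 1 when noradrenaline acts on beta-adrenergic receptors. Fat depots lie close to the organs studied, with brown fat around the mediastinum and the renal hilum of the mouse and white fat around the kidney. In whole-tissue RNA, fewer cells of a type and less RNA per cell cannot be told apart.

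The stretch of 250 bases before the transcription start is shown for 4 genes that stand for the thermogenic and the hormone arm of the group, from the RefSeq promoter table on GRCm38.p6. The capitals mark matches, on either strand, to the letters TGACG (the core of the cAMP response element, which answers beta-adrenergic signals), AGGTCA (the core of nuclear receptor sites), CCAAT (the CCAAT box) and TTGCGNAA (a core of the C/EBP site).
Ucp1, chr8:83290098-83290347, plus strand: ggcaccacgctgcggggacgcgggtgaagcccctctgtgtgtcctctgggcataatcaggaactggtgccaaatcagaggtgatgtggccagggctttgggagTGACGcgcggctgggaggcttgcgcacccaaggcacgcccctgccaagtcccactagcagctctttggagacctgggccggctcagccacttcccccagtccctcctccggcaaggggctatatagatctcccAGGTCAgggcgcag
Ppargc1a, chr5:51567726-51567975, minus strand: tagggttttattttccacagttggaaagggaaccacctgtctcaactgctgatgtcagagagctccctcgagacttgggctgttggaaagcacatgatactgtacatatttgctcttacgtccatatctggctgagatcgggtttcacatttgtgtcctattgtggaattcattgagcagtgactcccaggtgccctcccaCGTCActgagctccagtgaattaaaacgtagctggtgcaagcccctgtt
Adipoq, chr16:23146286-23146535, plus strand: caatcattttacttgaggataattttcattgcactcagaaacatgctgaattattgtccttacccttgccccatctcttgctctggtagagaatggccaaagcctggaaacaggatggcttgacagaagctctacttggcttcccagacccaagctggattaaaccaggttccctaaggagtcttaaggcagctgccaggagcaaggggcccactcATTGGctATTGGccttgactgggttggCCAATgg
Lep, chr6:29059971-29060220, plus strand: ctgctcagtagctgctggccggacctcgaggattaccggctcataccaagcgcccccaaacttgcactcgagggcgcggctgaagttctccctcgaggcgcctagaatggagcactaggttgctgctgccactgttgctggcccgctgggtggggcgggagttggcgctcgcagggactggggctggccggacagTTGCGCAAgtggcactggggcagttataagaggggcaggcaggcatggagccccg

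Counted from the start, the Ucp1 window holds TGACG from base -147 to -143 and AGGTCA from -14 to -9. The Ppargc1a window holds TGACG on the minus strand from -49 to -45. Adipoq has 3 matches to CCAAT, from -34 to -30 and -27 to -23 on the minus strand and from -7 to -3 on the plus strand. Lep has 1 match to TTGCGNAA, which reads the same on both strands, from -55 to -48. Over the 32851 promoters of that length in the table, TGACG was found in 17.765%, AGGTCA in 14.024%, CCAAT in 33.85% and TTGCGNAA in 0.67%. Windows of 7 of the fat genes were searched. Cidea, on chromosome 18, was left out of the search, and Fabp4 and Adrb3 were not found in the promoter table. Neither TGACGTCA, the full cAMP element (1.546% of promoters, and a sequence that contains TGACG), nor TATAAA (12.368%) was found in the 7 windows. Those of Plin1, Retn and Cfd held none of the motifs searched. A match describes letters in a window and does not show that a factor binds there.

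Library totals were 26214869 to 61954486 counts in liver, 20352770 to 43202066 in kidney and 41597623 to 155323865 in lung. For these totals 3 counts equal 0.048 to 0.11 CPM in liver, 0.069 to 0.15 in kidney and 0.019 to 0.072 in lung, for counting error only. CPM values are scaled by the TMM method within a tissue, so levels of different tissues are set side by side without a common scale.

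The level order was read from control libraries as CPM per kilobase of the longest coding transcript, with SD over 3 libraries. In lung TA, Fabp4 (a fatty acid carrier of adipocytes and of capillary endothelium) stood at 199 ± 56.7 and Cfd (adipsin, a complement protease) at 175 ± 26.5, a pair whose difference is within their SDs. Ucp1 at 26.4 ± 18.6, Adipoq at 21.0 ± 4.15 and Cidea at 19.9 ± 7.33 came next and did not differ beyond their spread. Retn followed at 10.97 ± 1.65, Adrb3 at 5.49 ± 0.953, Plin1 at 3.80 ± 3.09, Ppargc1a at 1.42 ± 0.216 and Lep at 0.578 ± 0.283.

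In kidney TA the same 2 genes led, Fabp4 at 316 ± 102 and Cfd at 262 ± 216 CPM per kilobase. Adipoq at 18.7 ± 9.29, Retn at 14.02 ± 7.52, Cidea at 12.9 ± 2.30 and Ucp1 at 11.5 ± 8.92 had overlapping spreads, and Ppargc1a reached 7.88 ± 0.909. Adrb3 at 1.91 ± 1.596, Plin1 at 1.63 ± 0.686 and Lep at 0.411 ± 0.149 were lowest. In liver TA only Fabp4 at 9.0 ± 2.29, Cfd at 2.87 ± 1.99 and Ppargc1a at 2.03 ± 1.39 had means above 1 CPM per kilobase, and the other 7 genes lay between 0.0163 for Lep and 0.754 for Adipoq.

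**Figure D1:**
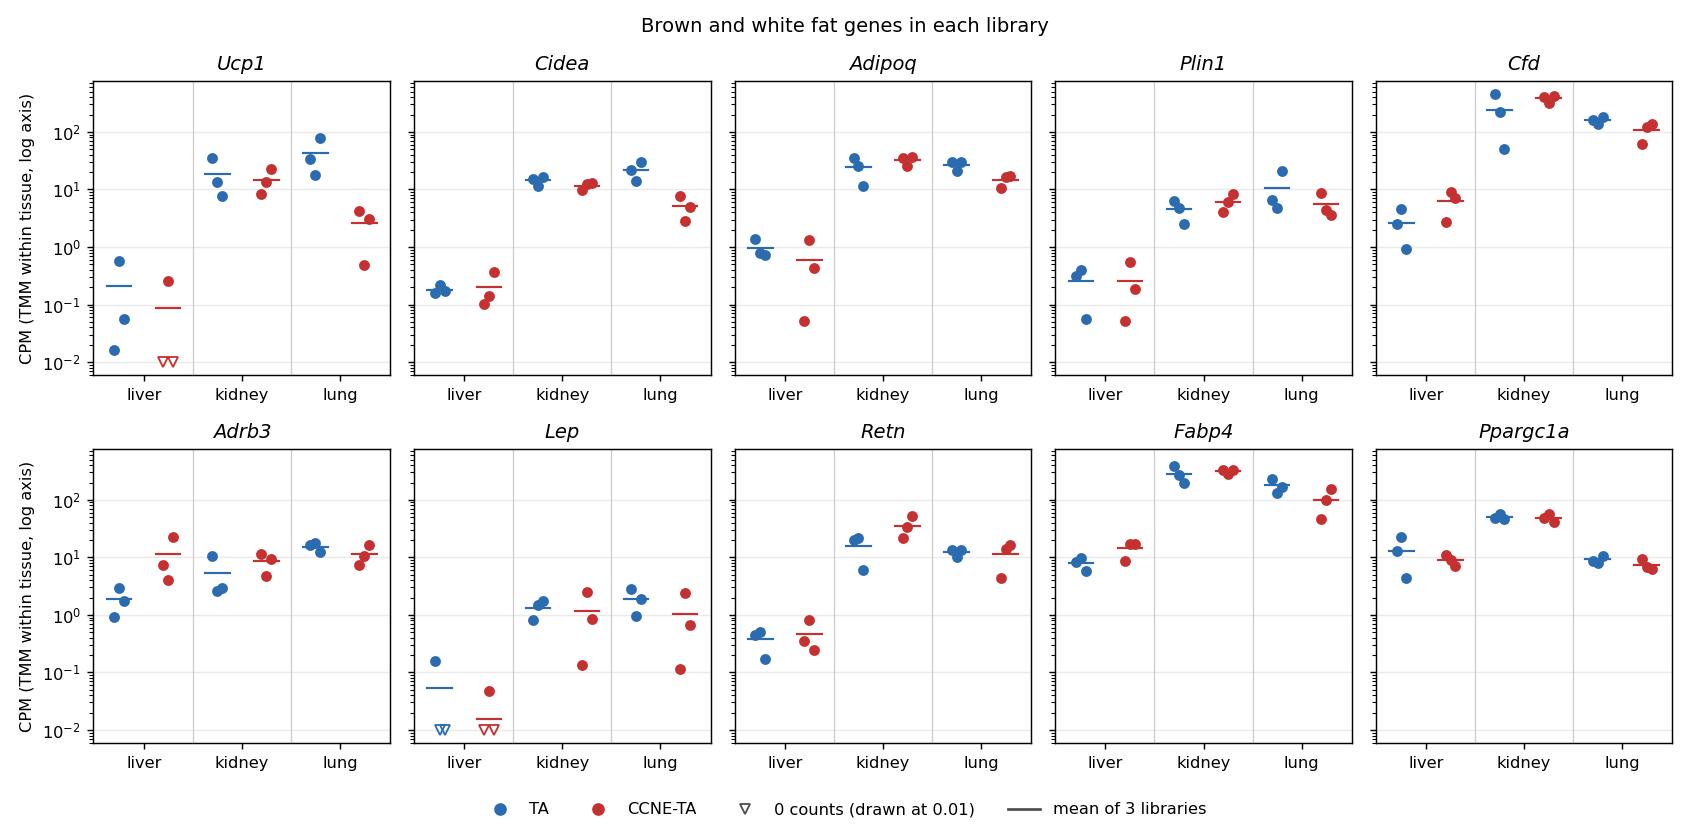
CPM of the 10 fat genes in each of the 18 libraries on a log axis, grouped by tissue; TA is in blue, CCNE-TA in red and a bar at the mean of 3 libraries; open triangles at the foot are libraries with 0 counts. Ucp1, Cidea and Adipoq are the 3 genes whose lung CCNE-TA points all lie below the lung TA points, and Adrb3 is the gene whose liver CCNE-TA points all lie above the liver TA points.

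In lung, the fitted log2 fold change of CCNE-TA against TA was below 0 for all 10 genes, with a median of -0.84, where the median over the 16823 genes fitted was 0.02. Ucp1, Cidea and Adipoq had no overlap between the groups. That is 3 of 10, where 4.59% of all fitted genes had CCNE-TA values below every TA value, and the choice of the genes used this contrast.

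Ucp1 encodes the mitochondrial proton channel by which brown fat makes heat (mm10 chromosome 8, 83290352 to 83298452, plus strand). It stood at 34.2, 18.2 and 77.0 CPM in lung TA and at 4.25, 0.495 and 3.01 CPM in lung CCNE-TA. The highest CCNE-TA library was below the lowest TA library, and TA 3 was the highest of all 18 libraries. The means were 43.1 ± 30.4 and 2.58 ± 1.91 CPM (SD, n = 3), a log2 fold change of -4.05 ± 0.91 (SE), the largest of the 10 genes. It was -3.35 without TA 3 and -3.57 without CCNE-TA 2, the libraries at the extremes.

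Cidea encodes a lipid droplet protein that is abundant in brown fat. Its lung levels were 21.6, 14.3 and 30.6 CPM in TA and 7.69, 2.85 and 4.90 CPM in CCNE-TA, a log2 fold change of -2.10 ± 0.44 (SE). The lowest control library was well above the highest CCNE-TA library, and CCNE-TA 2 was lowest for Cidea and for Ucp1 alike.

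Adipoq encodes adiponectin, a hormone of fat cells (chromosome 16, 23146536 to 23158028, plus strand). It was at 29.8, 21.0 and 30.6 CPM in lung TA and at 10.8, 16.3 and 17.2 CPM in lung CCNE-TA, a log2 fold change of -0.88 ± 0.24 (SE). The lowest TA library, number 2, stood just above the highest CCNE-TA library, and here CCNE-TA 1 and not CCNE-TA 2 was lowest.

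The other 7 genes overlapped between the lung groups. Just outside the no-overlap rule stood Fabp4 (chromosome 3, 10204088 to 10208576, minus strand), with 233, 133 and 169 CPM in TA and 47.1, 101 and 151 CPM in CCNE-TA. Cfd (chromosome 10, 79890853 to 79892655, plus strand) had 164, 136 and 184 CPM in TA and 61.2, 120 and 138 CPM in CCNE-TA. For both, only the highest CCNE-TA library, number 3, reached into the TA range, and number 1 was lowest.

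Plin1 encodes perilipin 1, the coat protein of the fat droplet (chromosome 7, 79720218 to 79732903, minus strand), and had 6.67, 4.73 and 20.7 CPM in TA against 8.81, 4.40 and 3.64 CPM in CCNE-TA. Its log2 fold change of -0.93 rests on TA 3: without that library it was -0.04. Lep, the gene of leptin (chromosome 6, 29060220 to 29073877, plus strand), was low throughout, at 2.78, 0.941 and 1.92 CPM in TA and 0.113, 2.38 and 0.657 CPM in CCNE-TA. Its lowest library was CCNE-TA 1, with 18 counts, and the range of CCNE-TA spanned most of the range of TA. The log2 fold change of Lep was -0.85, and single libraries moved it: it was -2.31 without CCNE-TA 2. Leaving out CCNE-TA 1 gave -0.31, and leaving out TA 1 gave -0.44.

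Adrb3 encodes the beta-3 adrenergic receptor through which noradrenaline drives lipolysis and heat production in fat (chromosome 8, 27225776 to 27250616, minus strand). Lung TA had 16.1, 17.6 and 12.4 CPM and lung CCNE-TA 7.49, 10.5 and 16.7 CPM, a log2 fold change of -0.41. Of its exon bases, 24.9% lie under the gene model Gm45470 on the other strand, and the library kit does not mark the strand, so reads of the 2 models cannot be told apart there.

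Retn, the gene of resistin (chromosome 8, 3655770 to 3660110, plus strand), had 13.5, 10.3 and 13.6 CPM in lung TA and 4.41, 13.8 and 16.5 CPM in lung CCNE-TA. Its log2 fold change of -0.11 turned to 0.28 without CCNE-TA 1, the 1 library that was low. Ppargc1a encodes PGC-1alpha, a coactivator of mitochondrial genes that is also expressed outside fat (chromosome 5, 51454250 to 51567726, minus strand). Its lung levels of 8.78, 8.06 and 10.8 CPM in TA and 9.18, 6.92 and 6.26 CPM in CCNE-TA differed by a log2 fold change of -0.30, and the groups overlapped.

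The fat genes did not keep a fixed proportion to each other in lung. Within each library the ratio to Adipoq was taken per kilobase. For Ucp1 it was 0.685 to 1.99 in lung TA and 0.0240 to 0.311 in lung CCNE-TA, an 82.8-fold range over the 6 libraries. For Cidea it was 0.789 to 1.16 in TA and 0.203 to 0.826 in CCNE-TA, so that 1 CCNE-TA library reached the TA range. For Cfd it was 7.72 to 9.08 in TA and 7.94 to 11.2 in CCNE-TA, a 1.46-fold range over the 6 libraries. Retn to Adipoq was 0.506 to 0.559 in TA and 0.464 to 1.09 in CCNE-TA. Relative to Adipoq, Ucp1 was lower in all 3 CCNE-TA lungs, whereas Cfd was not.

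**Figure D2:**
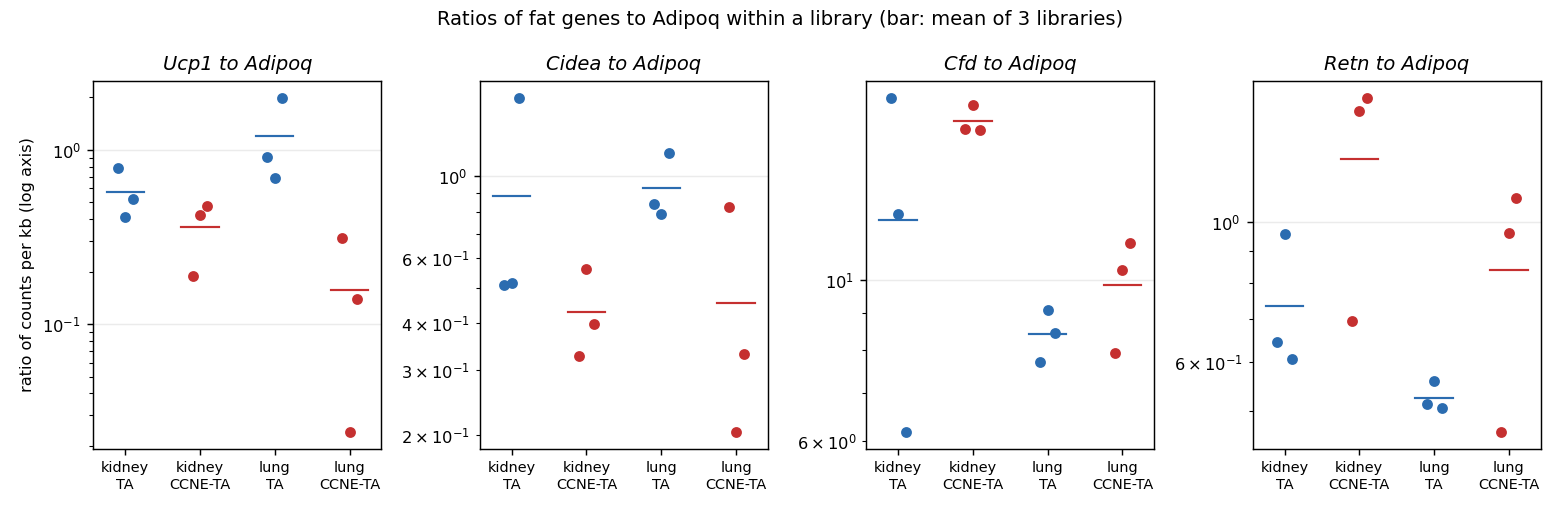
Ratio of Ucp1, Cidea, Cfd and Retn to Adipoq within each kidney and lung library, per kilobase of transcript, each panel on its own log axis, with TA in blue, CCNE-TA in red and a bar at the mean of 3 libraries. The Ucp1 panel shows the 3 lung CCNE-TA libraries at 0.0240 to 0.311, under the lung TA range of 0.685 to 1.99, and the Cfd panel shows the lung groups overlapping.

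A list of 20 other brown fat genes was read in the same way, with 16 fitted in lung. Like all lists here, it was chosen with earlier results of these data known, so its lung values are a description without a test. Of the 16 genes fitted, 15 had a log2 fold change below 0 and the median was -0.54. For 8 there was no overlap between the groups, against the 4.59% given above. These were Elovl3, Otop1, Cox8b, Cox7a1, Ppara, Esrrg, S100b and Ucp3, named after their values were seen. Elovl3, a fatty acid elongase that rises in cold-exposed brown fat, was at 0.223 ± 0.152 CPM (CCNE-TA) and 3.02 ± 2.34 CPM (TA), a log2 fold change of -3.72. Otop1, a proton channel, had means of 0.231 ± 0.117 and 1.72 ± 0.702 CPM in the same order, and its log2 fold change was -2.87. Cox8b, a respiratory chain subunit of brown fat and striated muscle, was at 4.996, 7.57 and 6.51 CPM (CCNE-TA) and 30.1, 16.3 and 23.0 CPM (TA), a log2 fold change of -1.86. Cox7a1, another such subunit, had a log2 fold change of -1.47.

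The 5 genes of the brown fat list with the highest level in lung TA were less apart. Kcnk3, a potassium channel, had a log2 fold change of -0.20, Prdm16, a determinant of brown fat identity, one of -0.18, and Letmd1 one of -0.17. Fabp3 stood at -0.71 and Slc36a2, a transporter of brown adipocytes, at 0.04, and the groups overlapped for each of the 5.

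Of 30 other adipocyte genes fitted in lung, 26 had a log2 fold change below 0 and the median was -0.54. The groups did not overlap for 6 of them, Pck1, Aqp7, Acvr1c, Gpd1, Sncg and Plin5, and all 6 were lower in CCNE-TA, where 4.59% of all genes were. Pck1, which makes the glycerol backbone in fat and glucose in liver and kidney, had a log2 fold change of -2.01, and Aqp7, the glycerol channel of fat cells, one of -1.64. The 5 most abundant genes of this list in lung TA, Scd1, Fasn, Lpl, Pnpla2 and Car3, overlapped between the groups, with log2 fold changes of 0.28, -0.01, 0.03, -0.04 and -1.11. Among 12 adrenergic and cAMP genes the median was -0.06 and each overlapped. Among 11 fat progenitor and stroma genes the median was 0.08, with Gdf10 lower and Cd34 higher without overlap, 1 of 11 each beside 4.59% and 3.3% of all genes. The 11 partners of Ppargc1a in mitochondrial biogenesis had a median of -0.11, and 1 of the 11, Acadm, was lower without overlap, beside the same 4.59%.

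**Figure D3:**
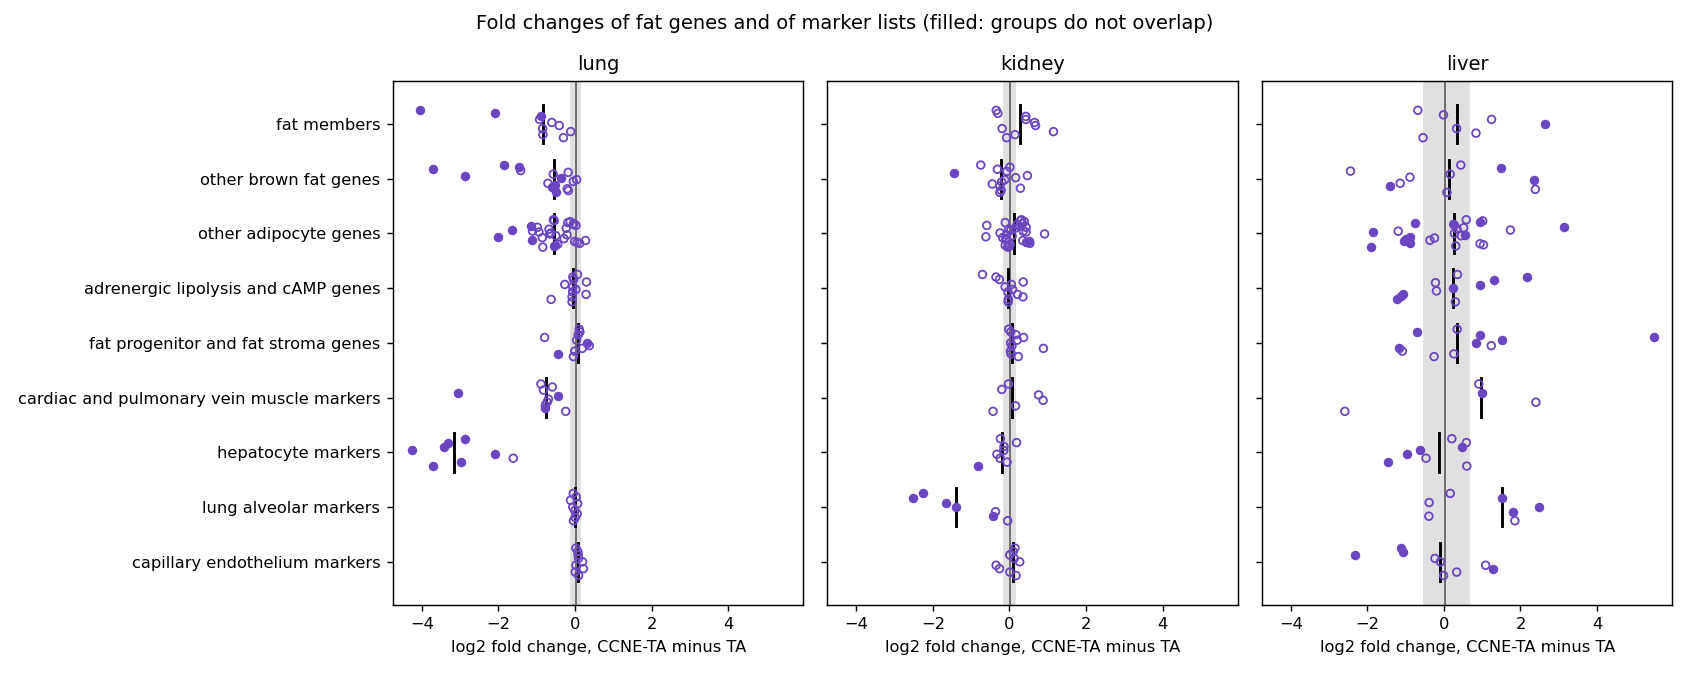
Log2 fold change of CCNE-TA against TA for each fitted gene of 9 lists in lung, kidney and liver; filled points have no overlap between the groups, black bars are list medians, the grey band is the range from the lower to the upper quartile of all fitted genes and the grey line their median. In lung the medians of the fat genes (-0.84), other brown fat genes (-0.54) and other adipocyte genes (-0.54) lie left of the band, as do those of the hepatocyte (-3.15) and cardiac (-0.75) markers, while the alveolar and endothelial medians lie inside it.

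Some markers of other tissues were also lower in lung CCNE-TA. Of 8 hepatocyte markers, 7 were lower without overlap, with a median log2 fold change of -3.15, and their summed level was 297, 142 and 62.8 CPM in CCNE-TA against 475, 711 and 2485 CPM in TA. Of 10 markers of cardiac and pulmonary vein muscle, 3 (Ryr2, Actc1 and Nppa) were lower without overlap, with a median of -0.75 and summed levels of 475 to 667 against 627 to 1366 CPM. Of 8 skeletal muscle markers all had a log2 fold change below 0 and 0 were free of overlap, with summed levels of 13.6 to 717 against 15.7 to 1491 CPM. No gene of these 3 lists was at 0 in all 3 libraries of a lung group. The part of these cells in the lung values of the fat genes was not tested. The summed fat genes were at 161, 278 and 358 CPM in CCNE-TA against 531, 364 and 551 CPM in TA. TA 3 was highest for both the hepatocyte and the fat sum. Within CCNE-TA the order of the hepatocyte sums was the reverse of that of the fat sums. Fabp4 and Cfd had the highest levels of the fat genes in each lung library and so weigh most in the fat sum. Among the CCNE-TA lungs, Ucp1, Cidea, Plin1 and Ppargc1a were highest in CCNE-TA 1, as the hepatocyte sum was. The other fat genes were lowest there. TA 2 had more hepatocyte RNA and a smaller fat sum than TA 1. With 3 libraries per group, these orders are a description.

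The alveolar and capillary markers of lung lay near the median of all genes, and those of the airway epithelium lay below it. The 9 alveolar markers had a median log2 fold change of 0.00 and summed levels of 24858 to 32887 CPM in CCNE-TA and 25944 to 32028 CPM in TA, and the 9 capillary endothelium markers, a cell type that also carries Fabp4, had a median of 0.09. All 6 airway epithelium markers had a log2 fold change below 0, with a median of -0.48 and 1, Bpifa1, lower without overlap. Their summed level was 29220, 75012 and 84151 CPM in CCNE-TA against 100551, 108512 and 57667 CPM in TA, lowest in CCNE-TA 1. That library had the smallest fat sum, but the highest Ucp1, Cidea, Plin1 and Ppargc1a of the CCNE-TA lungs. The part of airway cells in the fat gene values was not tested. Macrophage markers summed to 3234 to 10278 CPM in CCNE-TA and 3660 to 6324 CPM in TA. Retnla and Retnlg, relatives of Retn that belong to macrophages and neutrophils, had log2 fold changes of 1.97 and 2.64 in lung, with CCNE-TA 1 far above the rest at 2257 CPM for Retnla.

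**Figure D4:**
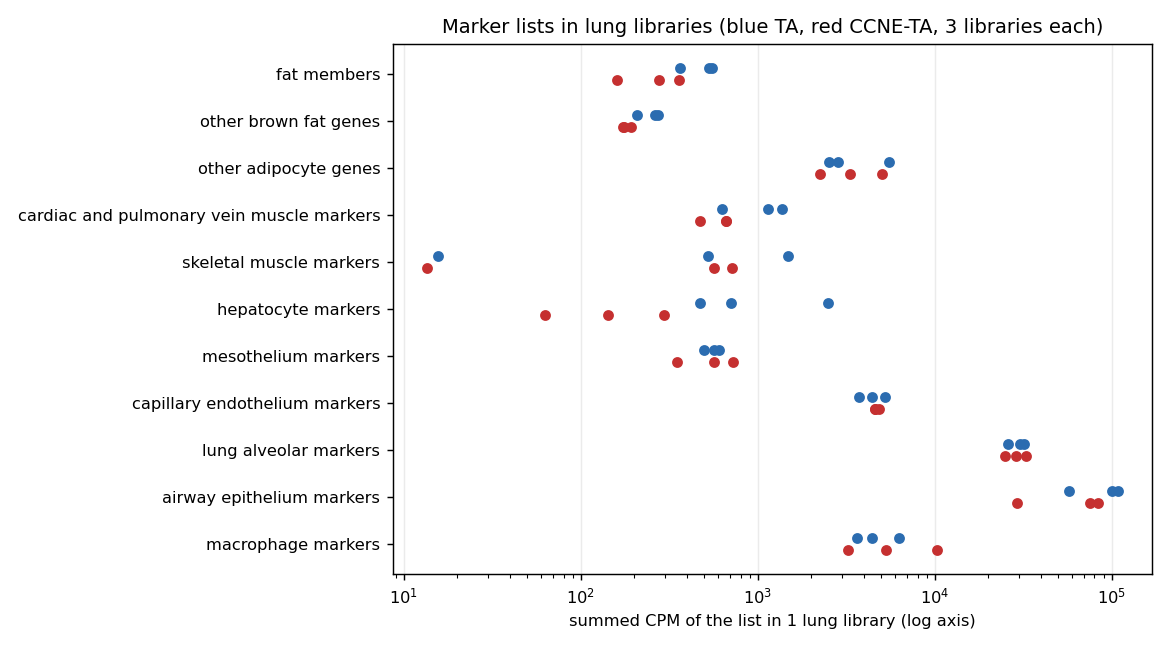
Summed CPM of each marker list in the 6 lung libraries on a log axis, TA in blue and CCNE-TA in red, 1 point per library. The fat genes (161 to 358 against 364 to 551 CPM), the other brown fat genes and the hepatocyte markers are lower in all 3 CCNE-TA libraries. The other adipocyte genes (2249 to 5054 against 2531 to 5528 CPM) overlap. So do the cardiac, skeletal muscle, airway, alveolar, endothelial, mesothelial and macrophage lists.

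In kidney, no fat gene passed the test between CCNE-TA and TA. All 10 passed the filter on low counts, 0 had an adjusted p under 0.05 by edgeR's quasi-likelihood test, where 0.0131% of the 15247 genes tested did. By DESeq2 it was 0 as well, where 0.136% of all genes passed, and 1 had an unadjusted edgeR p under 0.05, where 2.13% of all genes did. The median log2 fold change of the fat genes was 0.29, against 0.00 for all genes, 4 of 10 were below 0, and none was free of overlap, where 2.68% of all genes were lower and 3.04% higher without overlap.

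Ucp1 in kidney was at 35.3, 13.4 and 7.56 CPM in TA and at 8.40, 13.5 and 22.3 CPM in CCNE-TA. The CCNE-TA libraries lay within the TA range, and the log2 fold change was -0.34 ± 0.55 (SE, edgeR adjusted p = 0.999). Cidea was at 15.5, 11.4 and 16.2 CPM in TA and 9.91, 12.3 and 12.7 CPM in CCNE-TA, a log2 fold change of -0.30 ± 0.22. For Cidea the groups overlapped as well (edgeR adjusted p = 0.999).

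Of the secreted factors, Adipoq, Cfd and Retn had log2 fold changes above 0 in kidney, and none passed the test. Retn was at 20.1, 21.7 and 6.13 CPM in TA and at 21.6, 33.4 and 51.6 CPM in CCNE-TA, a log2 fold change of 1.15 ± 0.47 (edgeR unadjusted p = 0.0363, adjusted p = 0.999). Its lowest CCNE-TA library was level with the highest TA library. Adipoq was at 35.3, 25.8 and 11.5 CPM in TA and 35.3, 25.2 and 37.1 CPM in CCNE-TA. Cfd was at 449, 226 and 50.7 CPM in TA and 405, 313 and 425 CPM in CCNE-TA. For Adipoq, Cfd and Retn, TA 3 was the lowest of the 6 kidney libraries.

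The other 5 fat genes overlapped between the kidney groups and did not pass the test. Fabp4 was at 381, 269 and 200 CPM in TA and 335, 279 and 325 CPM in CCNE-TA, and Ppargc1a at 49.2, 57.5 and 46.1 against 48.2, 56.1 and 40.8 CPM. Ppargc1a had the smallest log2 fold change of the 10 genes here, -0.08 ± 0.19. Plin1 ranged from 2.55 to 8.42 CPM and Lep from 0.137 to 2.49 CPM over the 6 libraries, with log2 fold changes of 0.43 and -0.19. Adrb3 was at 10.5, 2.60 and 2.91 CPM in TA against 11.5, 4.68 and 9.35 CPM in CCNE-TA, and its log2 fold change of 0.68 was 1.63 without TA 1.

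Same-numbered kidney libraries deviated together over all genes. Within these pairs Adrb3 and Retn were higher in CCNE-TA in 3 of 3, and Ppargc1a was lower in 3 of 3. The pairs were read from these data, and the share of all genes with 1 direction in 3 of 3 was not counted. These pair counts are therefore a description. With the pairs as a block, 0 of the 10 passed. The log2 fold changes were then 0.87 for Adrb3, 1.19 for Retn and -0.08 for Ppargc1a, with edgeR adjusted p-values of 0.916, 0.945 and 0.964.

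Ratios to Adipoq in kidney were compared by an exact permutation test (two-sided), for which 3 against 3 libraries cannot give a p below 0.1, so 0.05 is out of reach. This test does not use the pairs. Over 7 ratios the exact p ran from 0.2 for Retn to 1 for Plin1, with 0.3 for Ucp1 and Cidea, and no adjustment can lower them. Ucp1 to Adipoq was 0.573 ± 0.194 in kidney TA and 0.361 ± 0.152 in kidney CCNE-TA (SD, n = 3), which overlapped. Retn to Adipoq was 0.644, 0.956 and 0.605 in TA against 0.696, 1.499 and 1.576 in CCNE-TA. It was higher in 3 of 3 pairs, which is a description too. The wider lists gave the same count of calls in kidney: 0 of 14 other brown fat genes and 0 of 30 other adipocyte genes passed, with medians of -0.21 and 0.11. By edgeR at an unadjusted p under 0.05 the counts were 0 and 3, where 2.13% of all genes passed, and by DESeq2 0 and 0. Otop1, 1 of the 14, was lower without overlap, and 2 of the 30, Acaca and Fasn, were higher. Of all genes, 2.68% were lower and 3.04% higher without overlap.

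In liver, Adrb3 rose and no other fat gene passed the test. Of the 10 genes 7 were tested, as Ucp1, Cidea and Lep did not pass the filter on low counts. The 1 call is set against 13.7% of the 13811 genes tested that were called higher in liver, with 14.8% called lower. The median of the 7 was 0.33, and the genes that passed the filter are not all of the fat genes.

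The liver TA libraries held 0.907, 2.92 and 1.73 CPM of Adrb3, and the CCNE-TA libraries 7.24, 4.08 and 23.0 CPM. The groups did not overlap, as for 23.2% of all genes in this direction, and CCNE-TA 3 was more than 3 times the next. The log2 fold change was 2.63 ± 0.72 (SE, n = 3 per group, edgeR adjusted p = 0.0335, DESeq2 adjusted p = 0.00013). Without CCNE-TA 3 it was 1.62 (edgeR adjusted p = 0.0572), and over the 6 fits that leave out 1 library the adjusted p was 0.0177 to 0.101. The fit without a filter on low counts gave an adjusted p of 0.0617. The stretch under Gm45470 noted above applies here too.

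Markers of other organs were read in the same liver libraries. The 6 adrenal markers summed to 17.7, 194 and 24.1 CPM in CCNE-TA against 4.68, 6.78 and 5.32 CPM in TA. Of these 4 were tested, all 4 above 0 in log2 fold change, and 1, Cyp21a1, was called higher, where 13.7% of all genes were. None of the 6 was at 0 in all 3 libraries of a group. The highest adrenal sum was in CCNE-TA 2, the CCNE-TA library with the least Adrb3. The 10 kidney tubule markers summed to 31.0, 17.1 and 35.7 CPM in CCNE-TA against 18.6, 0.378 and 0.398 CPM in TA. Of the 7 tested, 0 were called and 2 (Lrp2 and Umod) were higher without overlap, where 23.2% of all genes were. None of the 10 was at 0 throughout a group. Within CCNE-TA the tubule sums had the same order as Adrb3, while TA 1, with 18.6 CPM, had the least Adrb3. The 6 pancreas acinar markers went the other way, with sums of 0.939, 1.27 and 1.17 CPM in CCNE-TA against 167, 43.3 and 1.39 CPM in TA. The part of such cells in the Adrb3 value was not tested. Adipoq in the same libraries was at 0.051, 1.34 and 0.429 CPM in CCNE-TA against 1.401, 0.783 and 0.739 CPM in TA. These values rest on 2 to 57 counts in CCNE-TA and 26 to 88 counts in TA.

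Fabp4 in liver was at 8.42, 9.92 and 5.86 CPM in TA and 8.78, 17.1 and 17.4 CPM in CCNE-TA, a log2 fold change of 0.84 ± 0.31 (by edgeR, adjusted p = 0.0751). CCNE-TA 1 lay within the TA range, and without it the edgeR adjusted p was 0.0451. Cfd was at 2.47, 4.57 and 0.910 CPM in TA and 2.69, 8.91 and 7.24 CPM in CCNE-TA, a log2 fold change of 1.25 ± 0.61 (by edgeR, adjusted p = 0.156). For Fabp4 and Cfd alike it was CCNE-TA 1 that overlapped with the controls.

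Ppargc1a, which in liver takes part in the response to fasting, was at 12.6, 22.3 and 4.41 CPM in TA and 10.97, 9.05 and 6.96 CPM in CCNE-TA. The TA libraries spanned the CCNE-TA range, and the log2 fold change was -0.55 ± 0.51 (edgeR adjusted p = 0.445). Adipoq had a log2 fold change of -0.68 (by edgeR, adjusted p = 0.572), which was -2.06 without CCNE-TA 2 (adjusted p = 0.107) and -0.12 without CCNE-TA 1. The log2 fold change was 0.33 for Retn (edgeR adjusted p = 0.724) and -0.01 for Plin1 (0.994), and the levels of these 3 genes were at most 1.401 CPM in any liver library. Of the genes left out by the filter, Ucp1 had 0, 11 and 0 counts in CCNE-TA and 1, 21 and 2 in TA, Lep 0, 2 and 0 in CCNE-TA and 10, 0 and 0 in TA, and Cidea 0.102 to 0.368 CPM over the 6 libraries. A count of 0 in liver allows up to 0.11 CPM in the shallowest library.

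Of the 11 adrenergic and cAMP genes tested in liver, 3 that were called are given here, where 28.5% of all genes were called. Gnas, the G protein that couples adrenergic receptors to cAMP, rose by 1.30 on the log2 scale (by edgeR, adjusted p = 0.0109). Pde3b, which breaks down cAMP, fell by 1.24 on the log2 scale and Fabp5, a fatty acid carrier, by 1.12.

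Among other adipocyte genes, 6 of 25 tested were called in liver, where 28.5% of all genes were, so this share was not above the background. Lpl, the lipase that draws fatty acids from blood lipoproteins, rose from 18.5 ± 10.4 to 162 ± 64.8 CPM, which is a log2 fold change of 3.13 (by edgeR, adjusted p = 0.0057). The 5 that fell were Acaca and Fasn, which make fatty acids, Thrsp, Gpd1 and Klb, with log2 fold changes of -0.90, -1.03, -1.85, -0.99 and -1.90. Of the other brown fat genes, 2 of 10 tested were called, beside the same 28.5%, Bmp8b higher (log2 fold change 2.34, at 0.544 against 0.10 CPM) and Ppara lower (-1.41). Hepatocytes use the lipid synthesis genes of the adipocyte list too, so these liver values do not describe fat alone. Among the 11 fat progenitor and stroma genes, 1 was called higher and 2 lower in liver, with log2 fold changes from -1.17 to 5.48. The 11 partners of Ppargc1a gave the same counts of calls. Of all genes, 13.7% were called higher and 14.8% lower.

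Between the tissues, no fat gene showed a genotype effect that differed from liver to kidney. In an edgeR fit of the liver and kidney libraries together, 0 of the 10 interaction terms passed at an adjusted p under 0.05. Of the 16016 genes in that fit, 8.73% passed. Adrb3 had the largest of the 10 terms, -1.95 for kidney minus liver (unadjusted p = 0.0682, adjusted p = 0.214).

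In control mice the fat genes were higher in kidney than in liver. All 10 were tested, 8 were called higher in kidney and 0 lower, against 35.4% and 32% of 15153 genes, and the median log2 difference was 3.83 where all genes had 0.08. Here both tissues were scaled together. Ucp1 was higher by 5.54 ± 1.14 on the log2 scale (SE, edgeR adjusted p = 0.00482), Cidea by 5.27 ± 0.32 (2.25e-06) and Cfd by 5.48 ± 1.07 (0.00553). The 3 TA kidney libraries lay above the 3 TA liver libraries for each of the 8 genes called, and for 38.8% of all genes.

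Retn was higher by 4.34 ± 0.59, Fabp4 by 4.10 ± 0.32 and Adipoq by 3.57 ± 0.47 on the log2 scale, and Lep by 3.27 ± 0.96 and Plin1 by 3.07 ± 0.63. Their edgeR adjusted p-values were 0.000286, 8.4e-06, 0.000212, 0.0145 and 0.00244 in that order. These 8 calls held in each of the 9 alternative fits. Adrb3 did not pass, with a log2 difference of 0.50 ± 0.63 (edgeR adjusted p = 0.509), and its sign turned to -0.44 without kidney TA 1. Ppargc1a, which kidney tubule and liver cells express themselves, had one of 0.92 ± 0.51 (0.149), and passed at 0.015 without liver TA 2.

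The genes whose pattern over the 18 libraries was most like that of Adipoq, by Pearson's correlation of log2 CPM, were Mras (r = 0.946), 3632451O06Rik (0.945), Ndrg4 (0.941), Stc1 (0.940) and Agtpbp1 (0.940). For Ucp1 they were Adig (0.920), a small adipocyte protein, Ndrg4 (0.896), Gk5 (0.893), Stc1 (0.893) and Susd5 (0.887). The points share 3 tissues with 6 libraries each, and both genes are low in all liver libraries, so the values are a description. By Spearman's correlation 1 of the 5 genes was shared for each, Ndrg4 for Adipoq and Adig for Ucp1. Upk3bl, Cox8b, Otop1 and Ebf3 entered the list of Ucp1, and Aoc3, Gdap1l1, Adig and Ppm1d that of Adipoq.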

How the data were processed

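The values deposited by the authors are raw counts of reads per gene symbol, 1 column per library, and 0 columns were left out. Per the submitters' processing notes, TopHat2 2.0.14, Bowtie2 2.2.6, featureCounts 1.4.6 of Subread and the build mm10 were used. The annotation, strand mode and treatment of multi-mapped reads are not given in the sources used here. Libraries came from the TruSeq RNA kit version 2, per the labels' protocols.

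A separate fit was made for each tissue in edgeR 4.0.16 (R 4.3.3; filterByExpr, TMM scaling, robust quasi-likelihood F test, Benjamini-Hochberg adjustment over every gene tested), with calls at an adjusted p under 0.05. Log2 fold changes give CCNE-TA relative to TA, with an SE obtained by dividing the change by the root of F. The script was tested on simulated data. Of the symbols, 22750 matched GENCODE M21 directly and 943 through a RefSeq synonym, and 98.5% had a transcript length. Gene positions are from GENCODE M21 on mm10.

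The 10 genes and all lists were chosen with earlier results of these data known. Named besides them were Ccne1, up to 5 genes of a list with the highest mean CPM in lung TA, and the 5 genes most like Adipoq or Ucp1 (log2 CPM with a prior count of 2). Genes called in liver or kidney were named for the other brown fat, other adipocyte and adrenergic lists only. List genes named for having no overlap, Cyp21a1, Acadm and the Retnla library value were chosen after their values were seen. Trarg1 and Tusc5 are 1 gene. One result of the adrenergic list is not reported here.

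Alternatives were DESeq2 1.42.0, RLE scaling, no filter, 1 joint fit of the 18 libraries, a block for the replicate number, and each library left out. In kidney, samples with the same number deviated together, with correlations across genes of 0.38, 0.57 and 0.39, a pairing read from the data, since the labels state none.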

Additional observations from a re-analysis of the deposited data

How the results depend on the processing

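Of the genotype contrasts, the count of called genes in liver was 3942 and moved to 1521 to 4582 when 1 library was left out. In kidney it was 2, with 26 by DESeq2 and 1 to 2 with 1 library left out. In lung it was 1, with 187 by DESeq2, 94 in the fit of all 18 libraries and 0 to 1 with 1 library left out. The fat genes with no overlap in lung numbered 3, with 3 to 6 when 1 library was left out (background 6.54% to 13.6%) and 5 without CCNE-TA 1 and TA 3 (background 20.9%). The other adipocyte genes with no overlap numbered 6, with 7 to 14 when 1 library was left out and 12 without both. The other brown fat genes numbered 8, with 8 to 12 and 10. The omission of both libraries, and the alternatives for these lists, were chosen after seeing the data. With fewer libraries a lack of overlap is easier to reach.

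With 1 library left out, the log2 fold change crossed 0 for Plin1 in liver (-1.19 to 0.49), Retn in liver (-0.34 to 0.63), Ppargc1a in liver (-0.967 to 0.0597), Ucp1 in kidney (-0.78 to 0.49), Lep in kidney (-1.41 to 0.31), Fabp4 in kidney (-0.053 to 0.42), Ppargc1a in kidney (-0.196 to 0.0315), Retn in lung (-0.46 to 0.28, and 0.35 without CCNE-TA 1 and TA 3) and Adrb3 between control kidney and liver (-0.44 to 0.98). The liver, kidney and control values listed here did not pass the test, the lung value has no test, and the cause was not tested.

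With the replicate number as a block, the counts of called genes were 3323 in liver, 3 in kidney and 0 in lung. By edgeR under the block, Adrb3 in liver stood at 2.44 on the log2 scale (adjusted p = 0.0616), Fasn and Bmp8b in liver no longer passed (adjusted p = 0.0935 and 0.0566), and 0 fat genes were called in any tissue. Same-numbered libraries correlated at 0.18, -0.001 and 0.077 in liver and at -0.51, -0.045 and -0.59 in lung, so no pairing was read from the data there. With 3 libraries per group, these values cannot show that the samples are unpaired. In liver and lung, not every sample correlated best with its own number. Lep in all tissues, and Ucp1, Cidea and Plin1 in liver, rest on few counts, which limits what could be seen.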
